A study of Mus musculus with 1790 samples.

Results

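In all, 8 genes of acetylcholine receptors were followed through the single-cell profiles: the nicotinic subunits Chrna4, Chrna5, Chrna7 and Chrnb2, and the muscarinic receptors Chrm1, Chrm2, Chrm3 and Chrm4. They were chosen by name and not by a measured value, but with earlier results of these data known. They are 8 of the 49915 gene names with a row in any of the 7 deposited tables. All 8 have a row in the P15 and patch-seq tables. Chrm4 has no row in the P30 table or in either droplet table, the E14.5 tdTOM+/GFP+ table has no row for Chrm2 or Chrm4, and the E14.5 FlashTag table has none for Chrna7, Chrm1, Chrm3 or Chrm4. Where a gene has no row it was not analysed here.

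Acetylcholine reaches the cortex mainly from neurons of the basal forebrain. Nicotinic receptors are channels of several subunits that open when acetylcholine binds; Chrna4 and Chrnb2 encode the subunits of the main high-affinity form, Chrna5 an accessory subunit that joins it, and Chrna7 a subunit that forms a calcium-permeable channel by itself. Muscarinic receptors act through G proteins: Chrm1 and Chrm3 couple to Gq, which activates phospholipase C and closes M-type potassium channels, whereas Chrm2 and Chrm4 couple to Gi/o. Interneurons (INs) of the upper layers, neurogliaform cells (NGCs) and Vip+ INs among them, are known to respond to acetylcholine through nicotinic receptors.

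The sorted postnatal cells came from the upper layers of the somatosensory cortex and had no treatment. The mice were Hmx3-Cre::Htr3a-GFP and carried a Cre-dependent tdTOM allele at Rosa26 (fl/fl in the methods). GFP was on in every sorted cell, tdTOM marked the lineage that had expressed Hmx3-Cre (born in the preoptic area, POA), and GFP+ cells without tdTOM were attributed to the caudal ganglionic eminence (CGE). Subtype labels are the submitters' own and were assigned from the same expression values. Dock5+NGCs (labelled Lamp5 Plch2 Dock5) numbered 36 tdTOM+ cells at P15 and 76 at P30, and Lsp1+NGCs (Lamp5 Lsp1) 33 and 35. The tdTOM- cells with a Vip label numbered 63 and 47, and those with another Lamp5 label 14 and 21. NGCs below are the tdTOM+ cells of both NGC labels, so in a comparison of NGCs with Vip or other Lamp5 cells the lineage and the subtype cannot be told apart; the tdTOM+ cells of those labels (24 and 15 Vip, 16 and 19 other Lamp5) are given beside them. The patch-seq cells were 20 Dock5+NGCs and 27 Lsp1+NGCs of the same genotype, also without treatment, recorded between P14 and P25. Per the methods they lay in upper and deep cortical layers, and the layer of a cell was not compared here. At E14.5, 418 tdTOM+/GFP+ POA cells of that genotype and 352 wild-type FlashTag-labelled POA cells, which had divided at the ventricular wall shortly before collection, were captured on chips. Wild-type POA and CGE tissue gave 1 droplet library each (2106 and 4115 cells).

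Brains were pooled for the sorted P15 and P30 cells. Patch-seq cells were recorded singly over several ages, in 8 sets by their labels, so they span more than 1 animal, but each set holds 1 to 5 cells of a label, too few for values within sets. Since the labels do not tie any cell to an animal, every group was treated as 1 sample, no test was run and no p-value is given. A level is the count of a gene summed over the cells of a group, per 1000000 counts of that group (CPM), with an exact Poisson 95% interval. A difference is a log2 fold after 10 CPM were added to both groups, and "past 2-fold" means a log2 fold of at least 1 in size, where the higher group had 10 CPM or more. Shares of cells with a count have exact Clopper-Pearson 95% intervals. All these intervals cover counting error only, and those of CPM are too narrow, since a few cells often hold most counts of a gene. At both sorted ages the Dock5+NGCs, Lsp1+NGCs, Vip and other Lamp5 cells each held 4464427 to 19168453 counts, with group medians of 206939 to 267282 counts per cell. Gad2 and Lamp5 were high in both NGC labels (Gad2 3387 to 4579 CPM, Lamp5 762 to 1304 CPM), Vip in Vip cells (7957 and 7200 CPM), Ndnf was higher in Dock5+NGCs than in Lsp1+NGCs (3923 against 991 CPM at P15) and Npy higher in Lsp1+NGCs (10384 against 4193 CPM). Dock5 was at 93.8 against 50.0 CPM at P15 and 41.7 against 1.22 CPM at P30, but Lsp1 was at 13.0 in Dock5+NGCs and 14.0 CPM in Lsp1+NGCs at P15 and at 11.5 and 13.5 CPM at P30, so the gene Lsp1 itself did not set the labels apart in the sorted cells. Levels were not compared between P15 and P30, because their tables share 11979 of 17465 gene rows each, and not between genes, whose lengths differ.

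The promoters of Chrna4 and Chrnb2 are shown because these genes encode subunits of 1 receptor but differed in the embryonic cells. Both run from 250 bases before to 50 bases after the RefSeq start of the gene (GRCm38.p6), 5′ to 3′ on the gene's strand. Capitals mark each GC box (GGGCGG on either strand) and E-box (CANNTG).
Chrna4 (chr2:181039128-181039427, minus strand): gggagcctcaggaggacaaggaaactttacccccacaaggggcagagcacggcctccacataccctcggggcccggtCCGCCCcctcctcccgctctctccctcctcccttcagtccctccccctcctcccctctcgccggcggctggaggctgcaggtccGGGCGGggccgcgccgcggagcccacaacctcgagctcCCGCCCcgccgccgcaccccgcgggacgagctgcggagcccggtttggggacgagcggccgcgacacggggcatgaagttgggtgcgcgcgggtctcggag
Chrnb2 (chr3:89764583-89764882, minus strand): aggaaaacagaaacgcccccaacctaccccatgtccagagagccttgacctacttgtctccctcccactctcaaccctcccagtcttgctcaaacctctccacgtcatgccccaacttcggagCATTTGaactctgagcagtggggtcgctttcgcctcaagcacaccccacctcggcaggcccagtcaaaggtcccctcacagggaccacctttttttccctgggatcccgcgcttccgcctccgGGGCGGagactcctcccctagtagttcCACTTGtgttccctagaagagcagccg
The Chrna4 window holds 3 GC boxes and no E-box, and the Chrnb2 window 1 GC box and 2 E-boxes. Of the 32851 promoters in the RefSeq table, 35.7% hold a GC box and 72.3% an E-box, so a match is a description of these letters and of nothing bound there. Of the 8 receptor genes, 7 have a promoter entry.

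In the GENCODE M21 annotation of GRCm38, Chrna4 lies at chr2:181018380-181043546 (minus strand), Chrna5 at chr9:54980880-55007779 (plus), Chrna7 at chr7:63098692-63212569 (minus) and Chrnb2 at chr3:89746195-89764632 (minus), where it overlaps Adar on the opposite strand. Chrm1 lies at chr19:8663789-8683587 (plus), Chrm2 at chr6:36388084-36528414 (plus), Chrm3 at chr13:9875486-10360847 (minus) and Chrm4 at chr2:91927249-91928688 (plus). All 8 are protein-coding genes. Genes on the same strand overlap Chrna7 (Gm44741), Chrm2 (Mir490) and Chrm3 (9330159N22Rik, Gm47404, Gm47405 and Gm47411). Chrm1, Chrm2 and Chrm3 also have overlapping genes on the opposite strand. The part of these overlaps in the counts was not tested. The single exon of Chrm4 has 1440 bases and ends at the stop codon, with 0 annotated bases after it, against 143 to 4272 bases in the other 7 genes. The annotation release behind the deposited counts is not given in the sources used here.

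Nicotinic subunits were detected in most NGCs. For Dock5+NGCs, at least 1 of the 4 subunits had a count in 36 of 36 cells at P15 and 67 of 76 at P30; for Lsp1+NGCs it was 30 of 33 and 30 of 35. A muscarinic receptor had a count in 23 of 36 and 21 of 33 cells at P15 and in 41 of 76 and 27 of 35 at P30. The pair that forms the main high-affinity receptor, Chrna4 and Chrnb2, was found together at P15 in 17 of 36 cells of the Dock5 label and 12 of 33 of the Lsp1 label, and at P30 in 21 of 76 and 8 of 35. Vip cells had both in 35 of 63 cells at P15 and 10 of 47 at P30. Chrm2 and Chrm4 had no count in any of the 390 cells at P15 (upper limit 0.941% of cells; 3 counts would have been 0.0256 CPM). The P15 table holds 4331 gene rows that are 0 in every cell, against 0 rows at P30, and zeros that come from the cells cannot be told apart from zeros that come from how the P15 table was made.

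Chrna4 was found in most cells of both sorted NGC labels. At P15, Dock5+NGCs ran from 0 through a median of 202 to 3528 CPM per cell and Lsp1+NGCs from 0 through 97.3 to 837 CPM, summing to 229 (220 to 239) and 159 (151 to 167) CPM. The distributions overlapped widely, and 94.4% and 81.8% of the cells had a count. At P30 the order was the other way round: Dock5+NGCs ran from 0 through 18.3 to 1313 CPM (sum 126, 121 to 131) and Lsp1+NGCs from 0 through 53.8 to 1161 CPM (sum 195, 186 to 204). The log2 fold of Dock5+NGCs over Lsp1+NGCs was 0.51 (0.42 to 0.59) at P15 and -0.59 (-0.68 to -0.51) at P30, neither past 2-fold. Within plate rows 1 to 20 the P30 log2 fold was 0.01, and within rows 21 to 40 it was -0.94.

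Among the 8 groups of at least 10 cells in each table, Chrna4 was lowest in the NGC labels at P15. The order ran from tdTOM- Sncg cells (554 CPM) and tdTOM- other Lamp5 cells (499) through tdTOM- Vip (382), tdTOM+ Vip (381) and tdTOM+ other Lamp5 cells (337) to Dock5+NGCs (229), tdTOM- Lsp1 cells (222) and tdTOM+ Lsp1+NGCs (159). The intervals of the neighbouring Vip groups overlapped, as did those of Dock5+NGCs and tdTOM- Lsp1 cells. At P30 Dock5+NGCs were lowest at 126 CPM, and the groups from tdTOM- other Lamp5 (202 CPM) to tdTOM+ Vip cells (191 CPM) could not be told apart from their neighbours in the order by their intervals.

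Against tdTOM- Vip cells, NGCs had less Chrna4, by a log2 fold of -0.93 (-0.99 to -0.88) at P15 and -1.04 (-1.10 to -0.97) at P30. The Vip cells ran from 0 through 340 to 1470 CPM per cell at P15 and from 0 through 40.3 to 3266 CPM at P30, the latter with 19.1% of the counts in 1 cell. Only the P30 value was past 2-fold, and it was -0.85 without the cell with the largest count in each group and -0.29 within plate rows 21 to 40. Against tdTOM- other Lamp5 cells, which ran from 32.5 through 364 to 1371 CPM and all had a count at P15, NGCs were lower by -1.31 (-1.38 to -1.24) at P15 and -0.41 (-0.50 to -0.33) at P30, the latter 0.36 within plate rows 1 to 20.

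**Figure D1:**
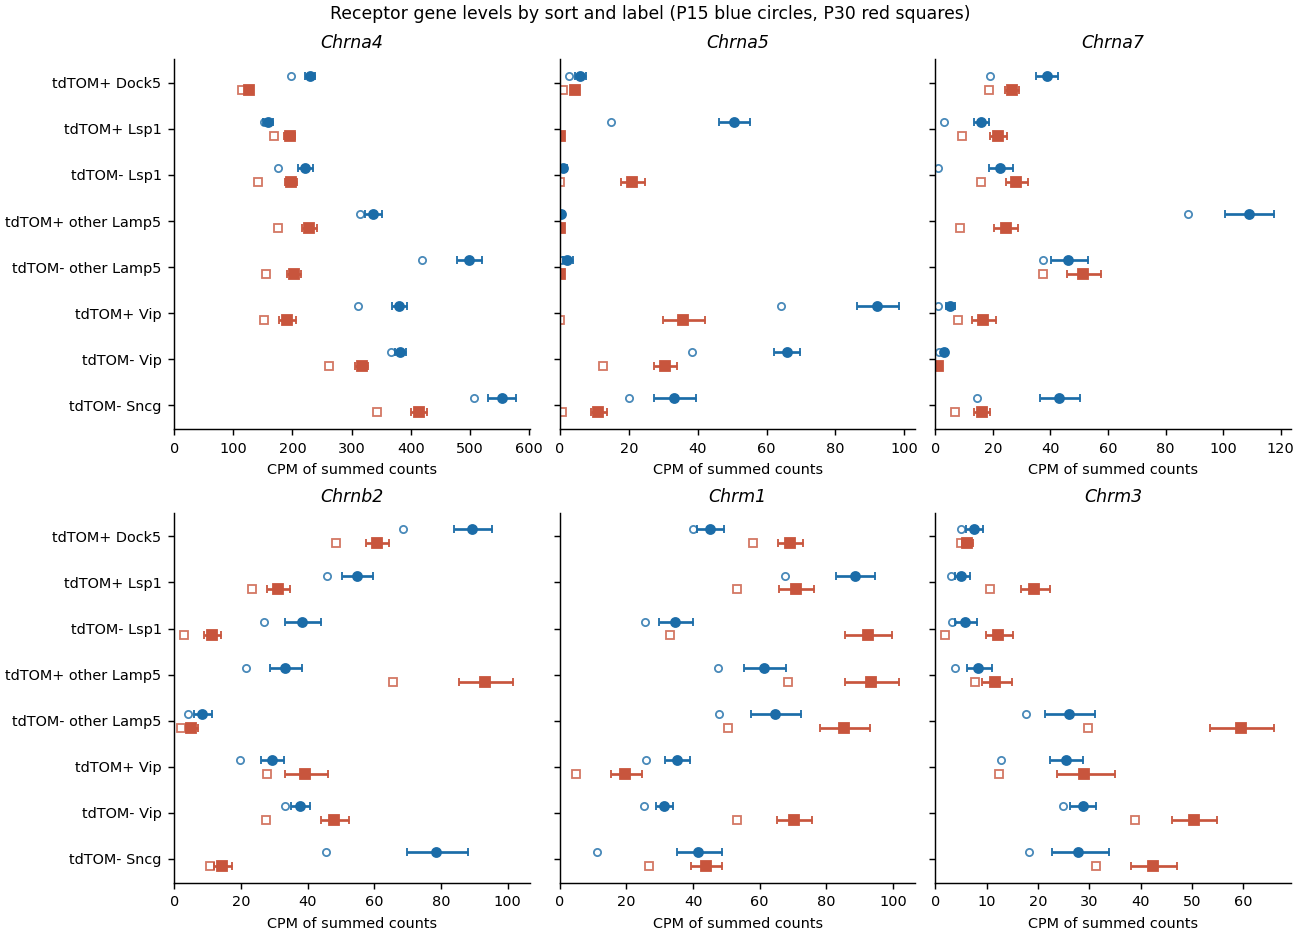
Level of 6 receptor genes (CPM of summed counts, x axis) in the 8 groups by tdTOM sort and subtype label, at P15 (blue circles) and P30 (red squares). Bars are exact Poisson 95% intervals, and open symbols are the level without the cell that holds the largest count. Chrna7 is at 3.09 and 0.873 CPM in tdTOM- Vip cells and Chrm3 at 6.21 to 7.48 CPM in Dock5+NGCs.

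Chrna5 was a gene of few cells. In Lsp1+NGCs at P15 it summed to 50.5 CPM (46.1 to 55.2), but 7 of 33 cells had a count, the median cell was at 0, and 1 cell held 73.4% of the counts; the level without it was 14.8 CPM. Dock5+NGCs were at 5.87 CPM (5 of 36 cells, highest 60.6 CPM), and the tdTOM- Lsp1 cells at 0.762 CPM. The log2 fold of Dock5+NGCs over Lsp1+NGCs was -1.93 (-2.10 to -1.75), and it was -0.98 without the largest cell of each group. At P30, Dock5+NGCs were at 4.33 CPM (5 of 76 cells) and Lsp1+NGCs at 0.102 CPM (1 count in 35 cells), both under the 10 CPM needed for a call.

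Vip cells held more Chrna5 than NGCs at both ages, with 18 of 63 cells (28.6%, 17.9% to 41.3%) against 12 of 69 (17.4%, 9.32% to 28.4%) at P15 and 9 of 47 (19.1%, 9.15% to 33.3%) against 6 of 111 (5.41%, 2.01% to 11.4%) at P30. The levels were 66.0 against 27.2 CPM and 30.5 against 2.90 CPM, log2 folds of -1.03 (-1.14 to -0.91) and -1.65 (-1.79 to -1.51). The tdTOM+ Vip cells were at 92.2 and 35.6 CPM, the latter from 1 of 15 cells. Of the Vip counts, 1 cell held 44.9% at P15 and 59.6% at P30; without the largest cell of each group the log2 folds were -1.28 and -1.08. The P15 value fell short of 2-fold in the cells with at least 100000 counts (-0.87). In other Lamp5 cells Chrna5 was near 0 (3 of 14 cells and 2.02 CPM at P15, 0 of 21 at P30), and the P15 log2 fold of 1.63 (1.41 to 1.80) in favour of NGCs was 0.90 without the largest cells.

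Chrna7 was low in tdTOM- Vip cells. Of the tdTOM- Vip cells, 6 of 63 at P15 (highest 32.9 CPM) and 4 of 47 at P30 (highest 21.2 CPM) had a count, for sums of 3.09 (2.33 to 4.03) and 0.873 (0.399 to 1.66) CPM. In NGCs, 15 of 69 cells at P15 and 27 of 111 at P30 had a count, the highest cells reached 674 and 742 CPM, and the sums were 27.7 (25.5 to 30.1) and 25.0 (23.2 to 26.8) CPM. The median cell was at 0 in all 4 groups, so the groups overlapped at 0 and differed in how many cells, and how high, lay above it. After thinning to a common depth the shares were 17.6% against 9.10% at P15 and 19.8% against 3.96% at P30. The log2 folds were 1.53 (1.39 to 1.65) and 1.69 (1.56 to 1.78); the lowest value within plate rows was 0.82 (rows 1 to 20, P15). The tdTOM+ Vip cells were at 5.16 CPM (3 of 24 cells) at P15 and 16.5 CPM (4 of 15 cells) at P30. Pooling both sorts for each label gave 1.40 and 1.24.

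Other Lamp5 cells had more Chrna7 than NGCs, with log2 folds of NGCs over them of -0.57 (-0.76 to -0.39) at P15 and -0.81 (-0.97 to -0.66) at P30, both short of 2-fold, and 0.19 and 0.18 within plate rows 21 to 40. Their tdTOM+ cells at P15 had the highest level of any group, 109 CPM (101 to 118; 9 of 16 cells). Between the NGC labels, Chrna7 was at 38.6 CPM in Dock5+NGCs (9 of 36 cells, highest 674) and 15.8 CPM in Lsp1+NGCs (6 of 33 cells, highest 568) at P15, and at 26.6 and 21.8 CPM at P30. At P15, 1 cell held 52.2% of the counts of the former and 81.7% of the latter. The P15 log2 fold of 0.92 (0.73 to 1.10) was -1.61 within plate rows 1 to 20 and 2.76 within rows 21 to 40.

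Chrnb2 was higher in Dock5+NGCs than in Lsp1+NGCs at both ages, short of 2-fold. At P15 the former ran from 0 through 5.38 to 633 CPM per cell and the latter from 0 through 0 to 558 CPM, with sums of 89.4 (83.8 to 95.3) and 54.8 (50.3 to 59.7) CPM; 52.8% and 45.5% of the cells had a count. At P30 the sums were 60.9 (57.4 to 64.5) and 31.1 (27.7 to 34.8) CPM, with counts in 32.9% and 37.1% of the cells and highest cells of 1291 and 410 CPM. The log2 folds were 0.62 (0.48 to 0.75) and 0.79 (0.64 to 0.93). The share of cells at P30 thus did not follow the level.

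Chrnb2 was past 2-fold between NGCs and tdTOM- other Lamp5 cells. In the latter, 3 of 14 cells at P15 (highest 95.6 CPM) and 3 of 21 at P30 (highest 72.0 CPM) had a count, for sums of 8.29 (5.84 to 11.4) and 5.07 (3.42 to 7.24) CPM. NGCs were at 72.9 (69.2 to 76.7) and 50.8 (48.2 to 53.5) CPM, with counts in 34 of 69 and 38 of 111 cells. The log2 folds were 2.18 (1.94 to 2.40) and 2.01 (1.81 to 2.19). The tdTOM+ other Lamp5 cells did not share the low level: they were at 33.3 CPM (9 of 16 cells) at P15 and 93.4 CPM (9 of 19 cells) at P30, the latter above Dock5+NGCs. With both sorts pooled for each label the log2 folds were 1.19 at P15 and -0.13 at P30. Vip cells differed less from NGCs, with log2 folds of NGCs over Vip of 0.79 (0.68 to 0.90) at P15 and 0.07 (-0.06 to 0.19) at P30.

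Chrm1 was found in 28.6% to 66.7% of the cells of each of the 8 groups at both ages. In Dock5+NGCs at P15 cells ran from 0 through 3.09 to 232 CPM, and in Lsp1+NGCs from 0 through 0 to 1080 CPM; the sums were 45.1 (41.1 to 49.3) and 88.6 (82.8 to 94.7) CPM, with 25.4% of the latter in 1 cell. The log2 fold was -0.84 (-0.98 to -0.70) at P15 and -0.03 (-0.15 to 0.09) at P30, when the sums were 69.2 and 71.0 CPM. Among cells at or above the median depth of their group the P15 value was -0.07. NGCs over Vip cells gave 0.88 (0.76 to 0.99) at P15 and -0.01 (-0.12 to 0.10) at P30, and NGCs over other Lamp5 cells 0.03 (-0.13 to 0.19) and -0.26 (-0.38 to -0.13). As reported here Chrm1 was past 2-fold in no postnatal comparison, but within plate rows 21 to 40 the values over Vip cells were 1.42 at P15 and 1.75 at P30, and within rows 1 to 20 they were 0.21 and -0.43.

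Chrm3 was lower in NGCs than in tdTOM- Vip cells at both ages. At P15, 17 of 69 NGCs (24.6%, 15.1% to 36.5%; highest cell 160 CPM) and 29 of 63 Vip cells (46.0%, 33.4% to 59.1%; highest cell 285 CPM) had a count, and the sums were 6.32 (5.28 to 7.52) and 28.7 (26.3 to 31.3) CPM. At P30, 29 of 111 NGCs (26.1%, 18.2% to 35.3%; highest cell 440 CPM) and 24 of 47 Vip cells (51.1%, 36.1% to 65.9%; highest cell 709 CPM) had a count, and the sums were 10.7 (9.50 to 11.9) and 50.5 (46.2 to 55.0) CPM. Cells at 0 were the majority in NGCs at both ages. Thinned shares were 20.3% against 43.8% at P15 and 23.9% against 46.6% at P30. The log2 folds were -1.25 (-1.38 to -1.11) and -1.55 (-1.68 to -1.41), and -0.73 within plate rows 21 to 40 at P15. The tdTOM+ Vip cells, of the same lineage as the NGCs, were at 25.4 CPM (14 of 24 cells) and 29.0 CPM (7 of 15 cells).

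Other Lamp5 cells of the tdTOM- sort resembled Vip cells in Chrm3, with 8 of 14 cells and 26.0 CPM (21.5 to 31.2) at P15 and 13 of 21 cells and 59.5 CPM (53.5 to 66.1) at P30. NGCs over them gave log2 folds of -1.14 (-1.36 to -0.92) and -1.75 (-1.91 to -1.60); without the largest cell of each group these were -0.87 and -1.17, and within plate rows 21 to 40 they were -0.84 and -0.67. The tdTOM+ other Lamp5 cells were lower, at 8.37 and 11.7 CPM. Between the NGC labels the levels were 7.48 and 5.06 CPM at P15, and 6.21 (5.14 to 7.43) in Dock5+NGCs against 19.3 (16.7 to 22.3) CPM in Lsp1+NGCs at P30, a log2 fold of -0.86 (-1.03 to -0.68) at P30. Of the Lsp1+NGC counts at P30, 1 of 35 cells held 45.8%.

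Counted over the receptor genes that reached 10 CPM, 1 of 5 at P15 (Chrna5) and 0 of 5 at P30 were past 2-fold between Dock5+NGCs and Lsp1+NGCs, where 19.3% and 19.4% of all genes of 10 CPM or more were (9.66% higher in Dock5+NGCs and 9.63% in Lsp1+NGCs at P15, 10.7% and 8.65% at P30). Against Vip cells, of the 6 genes that reached 10 CPM at each age, 3 were past 2-fold at P15 (Chrna7 higher in NGCs, Chrna5 and Chrm3 lower; 17.4% of all genes, 8.01% higher and 9.41% lower) and 4 at P30 (the same 3 and Chrna4; 23.2%, 12.7% higher and 10.5% lower). Against other Lamp5 cells, 4 of 6 such genes were past 2-fold at P15 (Chrnb2 and Chrna5 higher, Chrna4 and Chrm3 lower; 24.3%, 14.7% higher and 9.61% lower) and 2 of 5 at P30 (Chrnb2 higher, Chrm3 lower; 28.6%, 17.7% higher and 10.9% lower). The median log2 fold of the receptor genes with at least 10 CPM was 0.51 and -0.03 between the NGC labels, -0.07 and -0.52 for NGCs over Vip cells and -0.27 and -0.41 for NGCs over other Lamp5 cells at P15 and P30, and that of all genes lay between -0.02 and 0.08. The comparisons of NGCs with Vip and with other Lamp5 cells share the NGCs. Of the astrocyte markers, Aldoc was at 126 and 88.5 CPM in Vip cells against 0.574 to 14.3 CPM in the NGC labels, while Aqp4 and Gja1 were at 0 in these groups at P15 and have no row at P30; the part of these cells in the result was not tested.

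**Figure D2:**
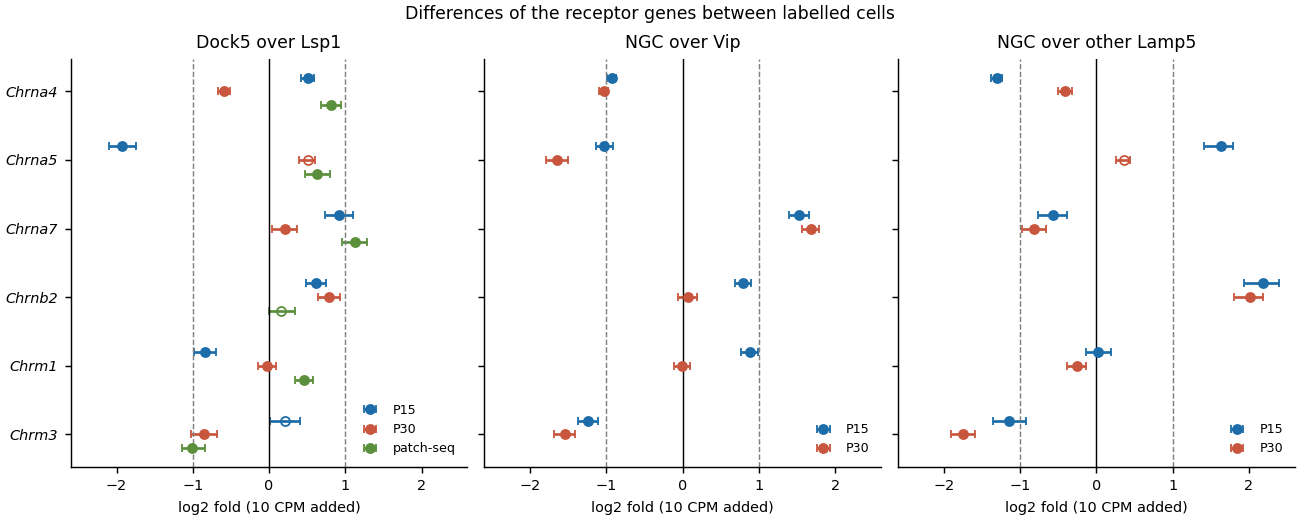
Log2 fold (10 CPM added, x axis) of 6 receptor genes for Dock5+NGCs over Lsp1+NGCs, NGCs over Vip cells and NGCs over other Lamp5 cells, at P15 (blue), P30 (red) and in patch-seq (green). Bars are 95% intervals for counting error, dashed lines mark 2-fold, and open circles mark genes under 10 CPM in both groups. Chrna7 lies at 1.53 and 1.69 over Vip cells, and Chrm3 lies left of the zero line at both ages against both Vip and other Lamp5 cells.

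The other Lamp5 cells are a mixture of labels, and Chrm3 differed among these labels. With both sorts together, Chrm3 was found in 5 of 8 Lamp5 Fam19a1 Tmem182 cells at P15 (30.5 CPM, 24.5 to 37.6) and 6 of 9 at P30 (91.4 CPM, 80.3 to 104), and in 3 of 3 and 6 of 8 Lamp5 Krt73 cells (35.4 and 27.8 CPM). The labels Lamp5 Ntn1 Npy2r (4 of 12 and 7 of 17 cells; 3.50 and 15.3 CPM) and Lamp5 Fam19a1 Pax6 (2 of 7 and 2 of 5 cells; 3.92 and 13.5 CPM) were lower at P15. Within labels Chrm3 also differed by sort: Tmem182 cells were at 49.1 and 98.6 CPM in the tdTOM- sort (5 and 8 cells) and 1.77 and 0 CPM in the tdTOM+ sort (3 and 1 cells), and Ntn1 Npy2r cells at P30 at 46.6 CPM (tdTOM-, 5 cells) and 5.41 CPM (tdTOM+, 12 cells), so label and sort cannot be told apart in the pooled values. Chrnb2 ran differently: it had no count in the 9 Tmem182 cells at P30 and was in 2 of 8 at P15 (6.24 CPM), whereas Ntn1 Npy2r cells were at 40.6 and 45.4 CPM and Pax6 cells at 22.7 and 89.5 CPM. Within Ntn1 Npy2r cells all Chrnb2 counts lay in the tdTOM+ sort (51.3 and 59.8 CPM in 9 and 12 cells), and the 3 and 5 tdTOM- cells had none. A single P30 cell labelled Lamp5 Lhx6 held 177 counts of Chrnb2 (524 CPM) and was in the tdTOM+ sort.

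**Figure D3:**
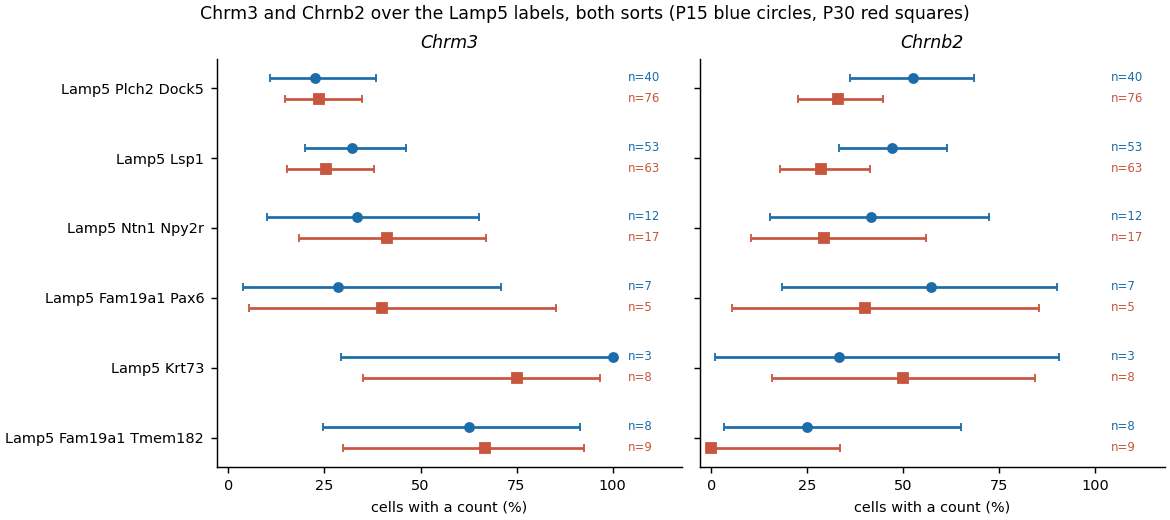
Share of cells with a count (%, x axis) of Chrm3 (left) and Chrnb2 (right) for 6 Lamp5 labels with both sorts together, at P15 (blue circles) and P30 (red squares). Bars are exact Clopper-Pearson 95% intervals and n is the number of cells. Chrm3 was in 62.5% and 66.7% of Lamp5 Fam19a1 Tmem182 cells, and Chrnb2 in 25.0% and 0% of them.

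In patch-seq, where the contents of recorded cells were drawn up by pipette, the NGC labels were compared again in other cells. These cells were not limited to the upper layers. Chrna4 ran from 0 through 0.968 to 329 CPM in Dock5+NGCs and from 0 through 9.58 to 135 CPM in Lsp1+NGCs; the sums were 50.9 (46.2 to 56.1) and 24.8 (23.5 to 26.2) CPM, a log2 fold of 0.81 (0.68 to 0.94). Chrm1 had the highest share of cells of the 8 genes, 14 of 20 and 20 of 27, with medians of 37.5 and 36.7 CPM that lay close together. Chrnb2 was at 7.35 and 5.51 CPM and Chrna5 at 20.8 and 9.87 CPM (4 of 20 and 8 of 27 cells). Of the 5 genes that reached 10 CPM, 2 were past 2-fold, beside 18.3% of all genes (7.63% higher in Dock5+NGCs, 10.6% in Lsp1+NGCs). Chrna7 was higher in Dock5+NGCs (17.6 against 2.71 CPM; 5 of 20 against 4 of 27 cells; log2 fold 1.12, 0.96 to 1.28), and Chrm3 higher in Lsp1+NGCs (16.3 against 3.06 CPM; 12 of 27 against 3 of 20 cells; log2 fold -1.01, -1.15 to -0.84). Without the largest cell of each group these were 0.99 and -0.54. In the latter group 1 cell held 73.3% of the Chrm3 counts, and it also held 15968484 of the 53198151 counts of the group.

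Chrm2 appeared in 4 of 27 patch-seq Lsp1+NGCs (3.03 CPM, 82.6% of the counts in 1 cell) and in 0 of 20 Dock5+NGCs, and Chrm4 in none of the 47 cells. The median depth was 378452 counts in Dock5+NGCs and 1037400 in Lsp1+NGCs; thinned to a common depth, Chrm3 was in 27.4% of Lsp1+NGCs and 13.8% of Dock5+NGCs. Markers of other cell types were higher in the Lsp1+NGCs: all 3 oligodendrocyte markers (sum 1800 against 406 CPM, Mbp 1728 against 393), all 3 of astrocytes (499 against 197 CPM), all 3 of glutamatergic neurons (116 against 5.88 CPM), all 3 of interneurons of the medial ganglionic eminence (367 against 62.1 CPM, with Lhx6 at 0 in Dock5+NGCs) and all 3 of microglia (93.9 against 28.2 CPM). Their part in the patch-seq results was not tested. In the sorted NGC groups the summed markers of glutamatergic neurons, microglia (P15; no row at P30) and vascular cells were at 0 to 2.48 CPM, and those of oligodendrocytes at 36.3 and 32.1 CPM in Dock5+NGCs against 0.516 and 0.203 CPM in Lsp1+NGCs.

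**Figure D4:**
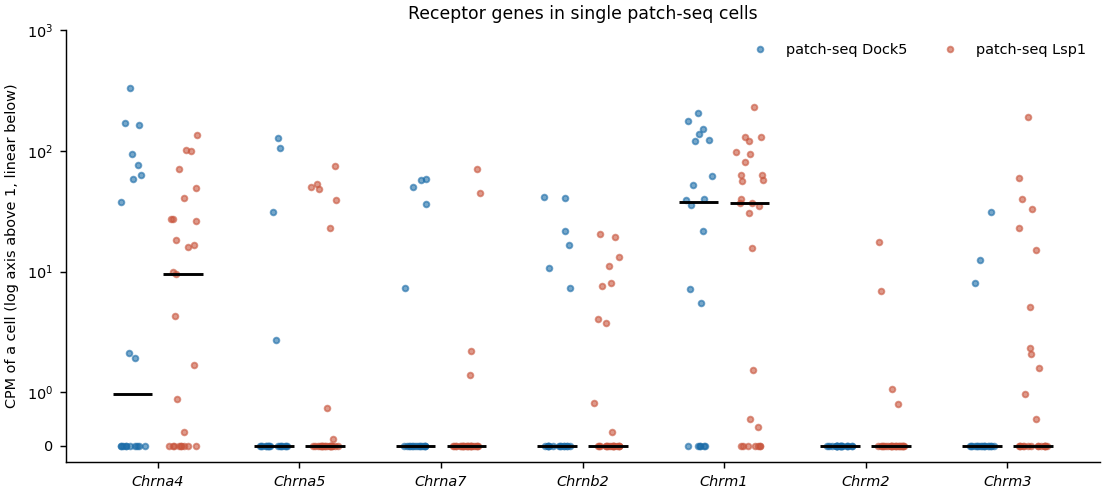
CPM of single patch-seq cells (y axis, log above 1 and linear below) for 7 receptor genes in Dock5+NGCs (blue, n = 20) and Lsp1+NGCs (red, n = 27); black lines are medians. Chrm1 medians lie at 37.5 and 36.7 CPM, and most cells are at 0 for Chrna5, Chrna7, Chrm2 and Chrm3.

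A further 42 genes of acetylcholine signalling were followed (other subunits, synthesis and breakdown, receptor chaperones and Ly6 proteins, muscarinic signalling). Between the NGC labels, 20 of them had at least 10 CPM at P15 and 21 at P30. Of these, 3 and 2 were past 2-fold, all higher in Dock5+NGCs. The shares of all genes were 19.3% and 19.4% (9.66% and 10.7% higher in Dock5+NGCs). In patch-seq, of 24 with at least 10 CPM, 0 were past 2-fold higher in Dock5+NGCs and 4 higher in Lsp1+NGCs. The shares of all genes there were 7.63% and 10.6%. Rgs4 (a regulator that shortens Gq and Gi/o signals) and Kcnq3 (an M-type potassium channel subunit) were past 2-fold higher in Dock5+NGCs at both sorted ages. Rgs4 was at 622 against 136 CPM at P15 (31 of 36 and 24 of 33 cells) and at 283 against 99.5 CPM at P30 (56 of 76 and 20 of 35 cells), log2 folds of 2.11 (2.03 to 2.19) and 1.42 (1.33 to 1.51). Kcnq3 was at 193 against 43.6 CPM (33 of 36 and 18 of 33 cells) and at 175 against 48.8 CPM (60 of 76 and 22 of 35 cells), log2 folds of 1.92 (1.79 to 2.05) and 1.65 (1.54 to 1.77). Of the Lsp1+NGC counts of Kcnq3 at P30, 1 cell held 48.3%. Other Lamp5 cells were above Dock5+NGCs in Kcnq3, at 346 and 278 CPM (tdTOM+) and 215 and 335 CPM (tdTOM-). The tdTOM- Sncg cells were too, at 315 and 241 CPM. Vip cells were at 211 and 84.0 CPM (tdTOM-) and 113 and 136 CPM (tdTOM+). In patch-seq Rgs4 was at 476 against 433 CPM, but 1 cell held 52.3% of the Lsp1+NGC counts, and without the largest cell of each label it was 451 against 295 CPM. Kcnq3 was at 91.0 against 82.7 CPM, and at 49.3 against 49.4 CPM without the largest cells.

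Against Vip cells, 2 of these genes were past 2-fold higher in NGCs and 7 lower at P15, of 24 with at least 10 CPM. At P30 it was 3 and 3 of 23. Of all genes, 17.4% were past 2-fold at P15 (8.01% higher, 9.41% lower) and 23.2% at P30 (12.7% higher, 10.5% lower). Rgs4 was higher in NGCs at both ages (log2 folds 1.15 and 1.54), and likewise against other Lamp5 cells (1.39 and 1.98). At P15 this held for Dock5+NGCs (622 CPM) and not for Lsp1+NGCs (136 CPM). The tdTOM- Vip cells were at 170 CPM and the tdTOM- other Lamp5 cells at 143 CPM. At P30 Lsp1+NGCs (99.5 CPM) were above both (69.5 and 48.5 CPM). The tdTOM+ other Lamp5 cells were at 227 and 129 CPM, and the tdTOM+ Vip cells at 83.5 and 6.11 CPM. Of the P15 NGC counts, 1 cell held 29.8%. Lypd1, a membrane-anchored Ly6 protein that binds nicotinic receptors, was at 1.48 CPM in sorted NGCs and 120 CPM in Vip cells at P15 (33 of 63 Vip cells), and at 2.34 and 121 CPM at P30 (17 of 47), log2 folds of -3.50 (-3.59 to -3.41) and -3.41 (-3.51 to -3.31). For Lypd1 the tdTOM+ Vip cells were at 206 CPM (18 of 24 cells) and 46.8 CPM (3 of 15 cells). Patch-seq NGCs had more Lypd1 than the sorted ones. It was at 28.8 CPM in Dock5+NGCs (7 of 20 cells) and 47.5 CPM in Lsp1+NGCs (9 of 27 cells). Of these counts, 1 cell held 71.9% and 49.4%. Chat, which makes acetylcholine, was in 2 of 69 NGCs and 12 of 63 Vip cells at P15 (0.0988 and 29.4 CPM), and in 1 of 111 and 1 of 47 at P30 (0.0345 and 11.6 CPM, all of these Vip counts in 1 cell). In tdTOM+ Vip cells Chat was at 49.6 CPM (5 of 24 cells) at P15 and 16.7 CPM (2 of 15 cells) at P30. The 2 P15 cells labelled Vip Rspo4 Rxfp1 Chat held 273 counts (291 CPM); of those labelled Vip Chat Htr1f, 2 of 6 had a count at P15 and 0 of 4 at P30. Against other Lamp5 cells, 1 gene of 22 was past 2-fold higher in NGCs and 2 lower at P15, and 5 and 2 of 21 at P30. Of all genes, 24.3% were so at P15 (14.7% higher, 9.61% lower) and 28.6% at P30 (17.7% higher, 10.9% lower).

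The genes whose level over the 16 groups of both ages was most like that of each receptor gene, of 8513 searched, were Rgs12 and Hrh2 for Chrna4 (Pearson r 0.88 and 0.87), Cdh8 and Crispld2 for Chrna5 (0.87 and 0.86), Spock3 and AI504432 for Chrna7 (0.82 and 0.80), Klf11 and Top3b for Chrnb2 (0.90 and 0.80), Zzz3 and Cryab for Chrm1 (0.87 and 0.84), and Adgrb3 and Runx1t1 for Chrm3 (0.89 and 0.87). These values describe 16 points that share their table, chips and depth within an age.

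At E14.5, Chrnb2 was detected in more tdTOM+/GFP+ POA cells than FlashTag cells. Of the former, 197 of 418 (47.1%, 42.3% to 52.0%) had a count and the highest cell reached 822 CPM; of the latter, 21 of 352 (5.97%, 3.73% to 8.97%) had a count and the highest cell reached 548 CPM. The median cell was at 0 in both. Thinned to a common depth the shares were 39.8% and 4.31%, at median depths of 356990 and 283979 counts. The sums were 52.0 (50.8 to 53.1) and 7.37 (6.87 to 7.90) CPM, a log2 fold of 1.84 (1.78 to 1.89). Chrna4, the partner subunit, did not follow: 60 of 418 cells (14.4%, 11.1% to 18.1%) and 44 of 352 (12.5%, 9.23% to 16.4%) had a count, at 18.5 (17.8 to 19.1) and 22.7 (21.8 to 23.6) CPM, a log2 fold of -0.20 (-0.25 to -0.15).

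Only 3 of the 8 genes have a row in both chip tables and 2 reached 10 CPM, of which 1 was past 2-fold, beside 22.8% of all genes (7.53% higher in tdTOM+/GFP+ cells, 15.3% in FlashTag cells). By the counts of fixed progenitor and neuronal markers, 301 FlashTag cells were progenitor-like and 51 post-mitotic, and Chrnb2 was in 4.32% (2.32% to 7.27%) and 15.7% (7.02% to 28.6%) of them. By the same markers 412 tdTOM+/GFP+ cells were post-mitotic and 6 progenitor-like, and Chrnb2 was in 47.3% of the 412. Chrna4 was at 17.8 CPM in progenitor-like FlashTag cells (12.0% of them) and 50.4 CPM in post-mitotic ones (15.7%). In post-mitotic tdTOM+/GFP+ cells it was at 18.8 CPM (14.3%). The collections differ in genotype, strain (CD1 for FlashTag and a C57BL/6 background for the transgenic mice, per the methods), sort and age of the cells after their last division, which cannot be told apart here. The other receptor genes were rare: in tdTOM+/GFP+ cells, Chrm3 was in 6 cells, Chrna5 in 3 and Chrna7 and Chrm1 in 1 each, and in FlashTag cells Chrm2 was in 2 and Chrna5 in 1.

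The droplet libraries showed Chrnb2 on the same side in both regions. Cells with more counts of the neuronal than of the progenitor markers were taken as post-mitotic (1558 POA, 2738 CGE) and the opposite as progenitor-like (539 and 1336), and 9 and 41 ties were left out. Hmx3 and Dbx1, genes of the POA, were at 16.7 and 64.1 CPM in the POA library and 0.182 CPM each in the CGE library. Other regional genes differed less between the POA and CGE libraries. Nkx2-1 was at 384 and 152 CPM, Lhx6 at 56.0 and 75.2 CPM, and Prox1 at 51.4 and 65.0 CPM. Nkx2-1 was in 29.6% of the CGE library cells. For the CGE library the methods give fewer cells as recovered than as kept after filtering. The regions are those of the labels. The libraries share 12 cell barcodes, no program for doublets was run, and haemoglobin markers were present in every class (369 to 1553 CPM summed). Chrnb2 was in 344 of 1558 post-mitotic POA cells (22.1%, 20.0% to 24.2%) and 35 of 539 progenitor-like cells (6.49%, 4.56% to 8.92%), at median depths of 7571 and 7595 counts, and in 262 of 2738 (9.57%, 8.49% to 10.7%) and 43 of 1336 CGE cells (3.22%, 2.34% to 4.31%), at 5341 and 7104 counts. Thinned, the shares were 6.86% against 2.18% and 4.71% against 1.23%. The levels were 28.0 against 9.02 CPM and 16.6 against 4.32 CPM, log2 folds of 1.00 (0.76 to 1.22) and 0.89 (0.71 to 1.06). The POA value of 0.9994 lay just under the 2-fold threshold.

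Chrna4 differed between the regions more than between the classes of the CGE. It was in 190 of 1558 post-mitotic POA cells (12.2%, 10.6% to 13.9%) and 90 of 2738 CGE cells (3.29%, 2.65% to 4.03%), at 14.2 (12.5 to 16.1) and 5.56 (4.50 to 6.80) CPM. Progenitor-like cells were at 7.59 CPM in the POA (5.94% of cells) and 5.50 CPM in the CGE (3.89%). The log2 fold of post-mitotic over progenitor-like cells was 0.46 (0.22 to 0.69) in the POA and 0.01 (-0.17 to 0.18) in the CGE. Thinned, the post-mitotic shares were 3.83% and 1.51%, and the log2 fold of POA over CGE was 0.64 (0.48 to 0.79) for Chrna4 and 0.52 (0.37 to 0.66) for Chrnb2. The 3 markers of interneurons of the medial ganglionic eminence summed to 119 CPM in post-mitotic POA cells and 500 CPM in post-mitotic CGE cells, and their part in the difference was not tested.

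The muscarinic genes were sparse but differed in where they appeared. Chrm1 was in 53 of 2738 post-mitotic CGE cells (1.94%, 1.45% to 2.52%) and in 4 of 1336 progenitor-like CGE cells. In post-mitotic POA cells it was in 0 of 1558 (upper limit 0.236%). With a floor of 3 counts set for the 0, its CPM in post-mitotic CGE cells was 17.9-fold that of the POA ones. That value leaves out counting error and sets 1 library against 1. Chrm2 was in 35 of 1336 progenitor-like CGE cells (2.62%, 1.83% to 3.63%) and 6 of 2738 post-mitotic ones (0.219%, 0.0805% to 0.476%), a ratio of post-mitotic to progenitor-like CPM of 0.0942 (0.0325 to 0.224). Chrm3 was in 54 of 1558 post-mitotic POA cells (3.47%, 2.61% to 4.50%) and 3 of 539 progenitor-like ones. In the CGE Chrm3 lay on the same side, in 0.804% of post-mitotic and 0.0749% of progenitor-like cells. Chrm2 hardly differed between the POA classes (0.642% of post-mitotic and 0.557% of progenitor-like cells). Chrm1 had 1 count in the progenitor-like POA cells. All were under 10 CPM. In the 3 droplet comparisons 2, 1 and 2 of 7 receptor genes reached 10 CPM and 0 of these were past 2-fold, beside 8.03% of all genes for post-mitotic over progenitor-like POA cells (2.69% higher and 5.34% lower), 10.8% for the same in the CGE (5.12% and 5.66%) and 3.37% for POA over CGE post-mitotic cells (2.13% and 1.24%).

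**Figure D5:**
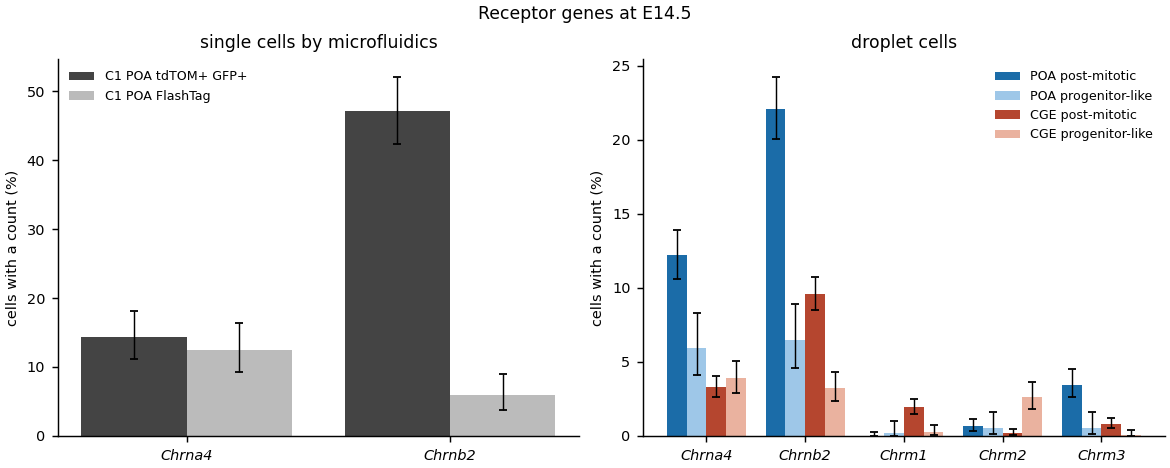
Share of cells with a count (%, y axis) of receptor genes at E14.5, for Chrna4 and Chrnb2 in the chip-captured POA collections (left) and for 5 genes in the droplet classes (right). Bars start at 0 and whiskers are exact Clopper-Pearson 95% intervals. Chrnb2 stands at 47.1% against 5.97% on the left and at 22.1%, 6.49%, 9.57% and 3.22% on the right.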

How the data were processed

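The deposited values are counts per gene and cell, which the methods describe as corrected to unique molecules. Patch-seq cells held up to 15968484 counts, and whether these are all unique molecules was not tested. Per the labels and methods, the authors aligned chip-captured and patch-seq reads to GRCm38 with STAR, collapsed molecular identifiers with UMI-tools, counted unique exonic reads with regard to strand, and filtered cells on genes, counts and mitochondrial share; droplet counts came from Cell Ranger (mm10), and non-GABAergic clusters had been removed. No program for doublets was run here. All 7 tables were read and 0 columns of values were left out; postnatal cells that the submitters left without a subtype entered no comparison.

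Counts were summed per group with Python 3.11.15, numpy 2.4.6, pandas 2.3.3 and scipy 1.17.1, and drawn with matplotlib 3.10.9. Of the 11 comparisons each sets 1 sample against 1, so none has a test. Folds were taken after adding 10 CPM and called from 2-fold with 10 CPM in the higher group; intervals are exact 95% ones for counting error, and a count of 0 was given a floor of 3 counts. For thinned shares, cells were brought to the depth of percentile 10 (130783, 125084, 101704 and 130916 counts for P15, P30, patch-seq and the E14.5 chips, 2960 for droplets) and shallower cells left out. The calculation was tested on simulated data.

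The receptor genes and the wider list were chosen with earlier results of these data known. Genes named were the 8 receptor genes, those of the 42 wider genes past 2-fold in the same direction at P15 and P30, and the 2 genes most like each receptor gene over 16 groups (of genes with at least 20 CPM in the highest group at each age). Alternatives covered the CPM added, the CPM minimum, depth, plate rows, the sorts, the largest cell and the marker classes.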

Additional observations from a re-analysis of the deposited data

Results flagged for a closer look

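For 3 receptor genes the log2 fold of Dock5+NGCs over Lsp1+NGCs pointed in opposite directions at the 2 ages, which was what drew attention to them; the difference between the ages was not tested, since each group is 1 sample. Chrna4 was at 0.51 at P15 and -0.59 at P30, the latter 0.01 within plate rows 1 to 20. Chrna5 was at -1.93 at P15, where 1 cell held 73.4% of the Lsp1+NGC counts, and at 0.50 at P30, where both labels were under 10 CPM and the value with both sorts together was -0.40. Chrm3 was at 0.22 at P15, with both labels under 10 CPM, and at -0.86 at P30; it was -0.04 within plate rows 1 to 20 at P15 and 0.08 in the cells at or above the median depth at P30.

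Chrm2 gave a signal outside the groups compared. It had 67 counts in 5 of the 310 P30 cells that the submitters left without a subtype (44, 13, 7, 2 and 1 counts), and 0 counts in the 271 P30 cells with a label.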

How the results depend on the processing

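Of the numbers of receptor genes past 2-fold, 78 stayed within 1.5 times of the reported number under the alternatives and 33 moved; 12 of these 78 hold a gene that the reported number does not, such as Chrna7 in place of Chrna5 between the NGC labels at P15 without the largest cells. Of 783 log2 folds of single receptor genes, 495 were classed as the same, 287 as moved and 1 as reversed. Of the 783, 33 changed sign, in 19 gene comparisons. Among these, 1 (Chrnb2 below) was past 2-fold as reported. The cause was not tested. The order below is Dock5+NGCs against Lsp1+NGCs (P15, P30, patch-seq), NGCs against Vip cells, NGCs against other Lamp5 cells, E14.5. With 1 CPM added, 2 genes at P15, 1 at P30 and 4 in patch-seq were past 2-fold between the NGC labels, and 1 in each of the 3 droplet comparisons. With 100 CPM added it was 0 at P15 and 0 in patch-seq between the labels, 0 and 0 against Vip cells, 1 and 0 against other Lamp5 cells (P15, P30) and 0 in the E14.5 chip cells. Means of single-cell CPM gave 1 at P30 and 0 in patch-seq. Cells at or above the median depth gave 2, 2 and 1. Plate rows 1 to 20 gave 3 at P15 and 1 at P30, and rows 21 to 40 gave 2 and 1, and 1 against other Lamp5 cells at P30. Both sorts together gave 1 at P30 between the labels and 1 against other Lamp5 cells at P30, where the Chrnb2 log2 fold reversed to -0.13. A minimum of 50 CPM gave 0 in patch-seq, 1 and 2 against Vip cells and 2 against other Lamp5 cells at P15. Without the cell with the largest count it was 0 in patch-seq, 2 against other Lamp5 cells at P15 and 1 in POA droplets, where a class margin of 2 times the marker counts also gave 1. The setting of at least 100000 counts per cell was chosen after seeing the data. No paired analysis was possible because no label ties cells of different groups to an animal and each group is 1 sample.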

Other observations

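The tdTOM- cells labelled Sncg (10 at P15, 25 at P30) entered no comparison. Chrna4 was at 554 CPM (530 to 579) in 10 of 10 cells at P15 and 414 CPM (400 to 428) in 24 of 25 at P30, the highest level of the 8 groups in each table. Chrm3 was in 8 of 10 and 15 of 25 of these cells, at 27.9 and 42.4 CPM. Chrnb2 was at 78.6 CPM (5 of 10 cells) at P15 and 14.4 CPM (12 of 25 cells) at P30, and 1 cell held 47.2% of the P15 counts.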
